A study of Homo sapiens with 36 samples.

Results

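GRB2 binding to RNA in HEK293T cells was described from 291116 windows of the transcriptome that held more reads after GRB2 immunoprecipitation (IP) than in matched input. All windows of the deposited GRB2 table were taken, with no selection by value. They were 291116 of the 788098 windows in 9 such tables, 1 for each protein of the series. The assay was eCLIP (enhanced crosslinking and immunoprecipitation), in which RNA crosslinked to a protein is cut with RNase, recovered with the protein and sequenced. The series followed a screen for proteins that change poly(A) site choice and holds 36 libraries.

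The GRB2 IP group had 2 libraries and the GRB2 input group had 2 libraries. Both came from untreated HEK293T, a transformed human embryonic kidney cell line, as did the libraries of the other 8 proteins. The labels name no genotype, treatment or time that would separate the groups. They do not say whether each protein's cells were grown in their own dishes. The protein was recovered with an antibody to itself or to a V5 tag, and which of these served for GRB2 is not given in the sources used here. No library lacking GRB2 or made with a control antibody was analysed here, so the background is the input. Whether the replicates were separate cultures is not given, so their spread may be technical.

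GRB2 is a small adaptor protein made of an SH2 domain flanked by a pair of SH3 domains. The SH2 domain docks on phosphorylated tyrosines of activated receptors and scaffold proteins. The SH3 domains hold proline-rich partners such as SOS1, the exchange factor that loads RAS with GTP, and so link growth factor receptors to the MAP kinase cascade. It is known mainly from these cytoplasmic roles and has no classical RNA-binding domain. Introns, where most of the windows described here lay, are removed from nuclear precursor RNA by splicing, and long introns make up most of the length of long human genes.

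Each window was at most 100 nt long, and 94.2% of GRB2 windows were 99 or 100 nt. Window sequences could be read only where a window fell inside a RefSeq promoter stretch of 300 nt, which held for 676 usable windows. In all 676 the GC content of the sequence equalled the deposited value. The 4 intronic windows of different genes with most IP reads among them are shown as examples of what was recovered, 5′ to 3′ on the transcribed strand in GRCh38, with runs of 5 or more of 1 base in capitals.
MAN1B1, chr9:137101773-137101872, plus strand: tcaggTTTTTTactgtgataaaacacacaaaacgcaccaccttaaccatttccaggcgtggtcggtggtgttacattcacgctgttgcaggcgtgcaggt
ASH1L, chr1:155561853-155561952, minus strand: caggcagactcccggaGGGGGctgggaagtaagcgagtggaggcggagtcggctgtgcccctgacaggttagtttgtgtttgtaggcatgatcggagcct
BRD2, chr6:32972928-32973027, plus strand: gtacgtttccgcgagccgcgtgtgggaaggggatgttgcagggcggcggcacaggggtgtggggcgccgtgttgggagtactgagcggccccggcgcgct
KANSL1, chr17:46162546-46162644, minus strand: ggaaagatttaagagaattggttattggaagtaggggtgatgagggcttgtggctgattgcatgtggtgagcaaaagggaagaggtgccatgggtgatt

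The MAN1B1 window, in the intron of a gene for an endoplasmic reticulum mannosidase, held 657 IP reads and 3 input reads, both summed over the replicates. Its log2 enrichment, the authors' log2 odds ratio of IP over input, was 6.95 in the lower replicate and 7.47 in the higher. The ASH1L window, in a gene for a histone methyltransferase, held 601 IP and 8 input reads, with log2 enrichments of 5.19 and 7.24. The BRD2 window, in a gene for a bromodomain protein, held 432 and 11 reads, with 5.002 and 5.47. It begins with the gt of the 5′ splice site, as did 70 of the 71 readable windows that the annotation places next to a 5′ splice site. The KANSL1 window lies in a deep intron of a gene for a chromatin complex subunit and held 361 and 11 reads, with 3.73 and 6.71. The replicates were close in BRD2 and MAN1B1 and far apart in KANSL1.

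Among the 397 readable intronic windows of 100 nt, GGGGG was present in 28.7%, CCCCC in 15.6%, TTTTT in 12.9% and AAAAA in 5.29%. In all 105348 promoter stretches of 100 nt, read on the sense strand, the shares were 16.5%, 15.4%, 9.93% and 9.55%. These letters describe windows in promoter stretches, which had a median GC of 60% against 41% for the whole list. They say nothing of deep intron windows outside such stretches, which made up most of the list. A stretch need not belong to the gene named. Those of the MAN1B1, ASH1L and KANSL1 windows belong to LOC124902313, ASH1L-AS1 and LOC107985027.

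The reads behind a single window were few. A GRB2 window held between 9 and 30148 IP reads, with a median of 30 and quartiles of 20 and 50. The median input was 1 read, and 36.8% of windows (95% exact binomial interval 36.7 to 37.0) had none. Over the whole list there were 13313477 IP reads and 517899 input reads, or 25.7 IP reads per input read, against 2.88 to 14.1 in the other 8 lists. Library totals are not part of the tables, so depth is unknown and this ratio is not a fold enrichment. The median log2 enrichment of a window was 3.38 in its lower replicate and 4.42 in its higher one. The replicates differed by a median of 0.82, by under 1 in 57.4% of windows and by over 2 in 14.6%. Both replicates reached a q-value of 0.05 or less in 148159 windows, or 50.9%, and the least significant listed windows, such as one in YTHDC1, had a q-value of 0.199. Intervals cover counting error only, and whether duplicate reads were removed is not given in these sources.

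Most of the listed windows lay in introns, and IP reads per input read were highest in deep introns and lowest over coding sequence and stop codons. Deep introns, more than 500 nt from a splice site, held 271124 windows with 27.9 IP reads per input read. Windows in the 100 nt next to a 5′ splice site numbered 1475, with 14.9 IP reads per input read, and those next to a 3′ splice site 450, with 14.0. In the rest of the 500-nt flanks, 6425 windows on the 5′ side had 16.8 and 3708 on the 3′ side had 19.1. In 3′ UTRs, 4131 windows of 440 genes had 12.6, and in 5′ UTRs 851 windows had 10.2. The 231 coding windows had 7.57, and the 45 windows over stop codons 6.11. The order did not separate all introns from all exons. The 1013 windows in noncoding exons of mRNA genes had 17.0, above those next to either splice site, and the 204 windows in the flanks of short introns had 12.7, near the value of 3′ UTRs.

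The authors' log2 enrichment was also highest in deep introns among classes of at least 20 windows, but lowest in coding sequence, where stop codons were lowest by IP reads per input read. Its median in the lower replicate was 3.40 in deep introns (quartiles 2.61 and 4.14), 2.97 in the rest of the 5′ splice site flanks, 2.63 in 3′ UTRs, 2.29 over stop codons and 2.19 in coding sequence (quartiles 1.67 and 2.78). The share of windows without an input read moved with these classes, from 38.1% in deep introns to 10.4% in coding sequence, and its part in the order was not tested. The share of the list in deep introns was above that of every other list, and the shares in coding sequence, 5′ UTRs, 3′ UTRs and long noncoding RNA exons were below those of every other list. A test over libraries was not possible for these shares, because counts were summed over replicates.

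**Figure D1:**
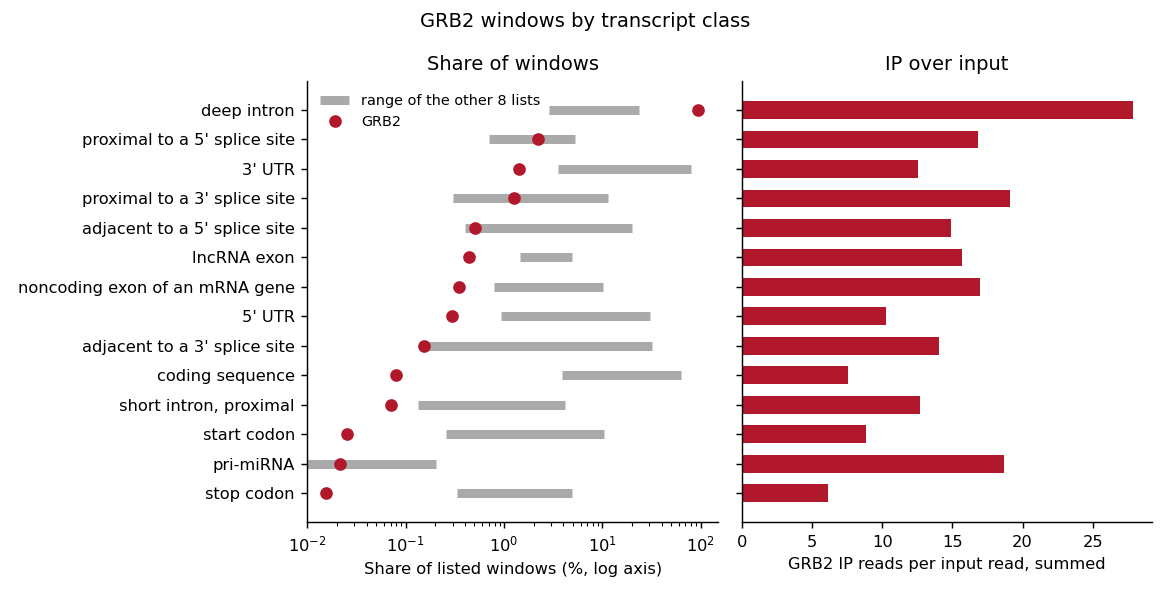
Share of listed windows in each transcript class with at least 20 GRB2 windows (left, percent on a log axis; red points GRB2, grey bars the range of the other 8 lists) and GRB2 IP reads per input read summed over the class (right). The GRB2 point lies to the right of the grey bar in deep introns only, and IP reads per input read run from 6.11 at stop codons to 27.9 in deep introns.

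The most enriched windows were compared within each class of at least 20 windows. With at least 5 input reads required, the top 3 deep intron windows all lay in DOCK1, a gene for an exchange factor that activates RAC with its partner ELMO. The first, at chr10:126947324-126947423, held 2567 IP and 6 input reads, with log2 enrichments of 7.90 and 8.59. The other two held 1864 and 1512 IP reads and 5 input reads each.

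Near splice sites, ARHGEF18, a gene for a guanine nucleotide exchange factor, held the top 3 windows in the 3′ flank. They adjoined each other from chr19:7450649 to 7450948, with 1331, 1066 and 1069 IP reads against 12, 5 and 10 input reads. In the 5′ flank the top window was a further MAN1B1 window, at chr9:137102073-137102172, with 1404 IP and 7 input reads. SCML1, a gene for a Polycomb-like protein on chromosome X, was named in 3 classes at once. Its 5′ UTR windows held 867 and 580 IP reads, its window next to the 5′ splice site 488, and the best in the flank 975, against 11 to 16 input reads. High reads thus ran from the 5′ UTR across a 5′ splice site into the intron. Directly at 5′ splice sites, ZNF207, a gene for a kinetochore protein, reached a log2 enrichment of 5.09 with 268 IP and 7 input reads. At 3′ splice sites, SIN3B, a gene for a histone deacetylase scaffold, reached 5.06 with 233 and 5, and NAP1L4, a gene for a histone chaperone, 4.74 with 434 and 9.

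Exonic windows were few. The strongest coding and 3′ UTR windows were far above their class, while those over start and stop codons were closer to it. A coding window of WNK1, a gene for a kinase that controls ion transport, at chr12:754136-754229 held 1335 IP and 7 input reads, with log2 enrichments of 6.87 and 7.81 against a class median of 2.19. A coding window of CASC3, a gene for an exon junction complex core protein, held 521 and 9 reads and reached 5.19. Over a start codon, EIF3E, a gene for a translation initiation factor subunit, reached 3.10 with 278 and 18 reads, against a class median of 2.47 and an upper quartile of 2.996. Over stop codons the highest was annotated to RBM4, a splicing regulator gene, and to the RBM14-RBM4 readthrough, at 3.28 with 107 and 11 reads, against a class median of 2.29 and an upper quartile of 2.63. Both were under the median of the whole list. In 3′ UTRs the top windows were in POMK, a gene for a kinase that modifies dystroglycan, at 5.70 and 5.53, and in OTUD3, a deubiquitinase gene, at 5.50.

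Without the requirement on input reads, the strongest window of the list was in an intron of BTBD2, at chr19:1998553-1998650. It held 7879 IP reads and 3 input reads, with log2 enrichments of 10.96 and 11.25. The next was in an intron of TTC3, a ubiquitin ligase gene, at chr21:37095150-37095249, with 1252 IP reads and no input read. Its replicates were 9.22 and 10.92.

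GRB2 windows adjoined each other in long unbroken runs. The 291116 windows formed 93737 runs of directly adjoining windows on 1 strand, and 71.0% of windows lay in runs of 3 or more. In the other 8 lists this share was 28.7% ± 15.1 (SD, n = 8), from 9.18 to 50.99%. GRB2 was therefore above all 8, and the exact permutation test of the GRB2 label over the 9 lists, two-sided, gave p = 0.111. That is the smallest p that 9 lists allow, so the test cannot reach 0.05. List length and window class differed along with the share. The GRB2 list was the longest, and 93.1% of its windows were in deep introns, against 2.89 to 23.4% in the other lists. Window class was not held equal, and the part of length or class was not tested.

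Longer runs held more reads per window. Single windows made up 18.3% of the list, with a median of 18 IP reads, 15.9 IP reads per input read and a median lower-replicate log2 enrichment of 3.13. Pairs held 10.8%, with 22 IP reads, 17.3 per input read and 3.09. Runs of 3 to 9 windows held 30.1% of windows, with 28 IP reads, 20.3 per input read and 3.25. Runs of 10 to 49 held 36.0%, with 47, 30.7 and 3.74. The 223 runs of 50 or more lay in 189 genes and held 4.87% of windows but 11.5% of IP reads, with 80, 49.97 and 4.34. The reads per window rose at each step, and the enrichment rose from pairs on. Runs are built only from listed windows, and listing itself rests on the reads. Run length and reads per window are therefore not independent, and the rise was not tested.

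Within those 223 long runs, reads were higher in the interior than at the ends. When each run was cut into 5 equal stretches from 5′ to 3′, the median IP reads per window were 66, 100, 98, 85 and 59. The median lower-replicate log2 enrichments were 4.03, 4.68, 4.67, 4.43 and 3.89. A run ends where a window is not listed, so lower values at the ends follow from how runs are defined. The stretch 5′ of the midpoint of a run held a median of 52.7% of its IP reads (quartiles 48.4 and 57.2), and it held over 50% in 147 of 223 runs.

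The longest run was in an intron of ZNF644, a zinc finger gene, and covered 15.1 kb at chr1:90986168-91001258 on the minus strand. Its 151 adjoining windows held 21561 IP and 599 input reads, between 23 and 580 IP reads each. The lower-replicate log2 enrichment was never under 1.34 and had a median of 4.31. The next was in RP11-37B2.1, an annotated long noncoding RNA, with 124 windows, 14211 IP and 222 input reads. SLC25A26, the gene for the mitochondrial S-adenosylmethionine carrier, had a run of 120 windows over 11.998 kb with 7258 and 97 reads. PRH1, a salivary proline-rich protein gene annotated within the PRH1-PRR4 readthrough, had 117 with 16083 and 227. MTG1, a mitochondrial ribosome GTPase gene, had 108 with 17544 and 450. Each of these 5 runs lay within 1 annotated deep intron segment. Between 0 and 3.70% of their windows were in any of the other 8 lists.

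The DOCK1 run was different in shape. Its 107 windows, at chr10:126946424-126957113, held 31468 IP reads and 191 input reads, and 85.1% of the IP reads lay 5′ of its midpoint. A block of 12 windows of over 1000 IP reads each, chosen after the values were seen, held 21839 IP reads and 68 input reads, or 69.4% of the run. It lay from 0.80 to 2.00 kb after the start of the run, and the other 95 windows had a median of 90 IP reads. The lower-replicate log2 enrichment was at least 6.53 throughout the block. Of the 12 windows, 10 were also in the CPSF5 list and none in the other 7. In GPI, the gene for the glycolytic enzyme glucose-6-phosphate isomerase, a run of 95 windows held 36592 and 1080 reads with 32.7% 5′ of the midpoint. Every window of that run had input reads.

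**Figure D2:**
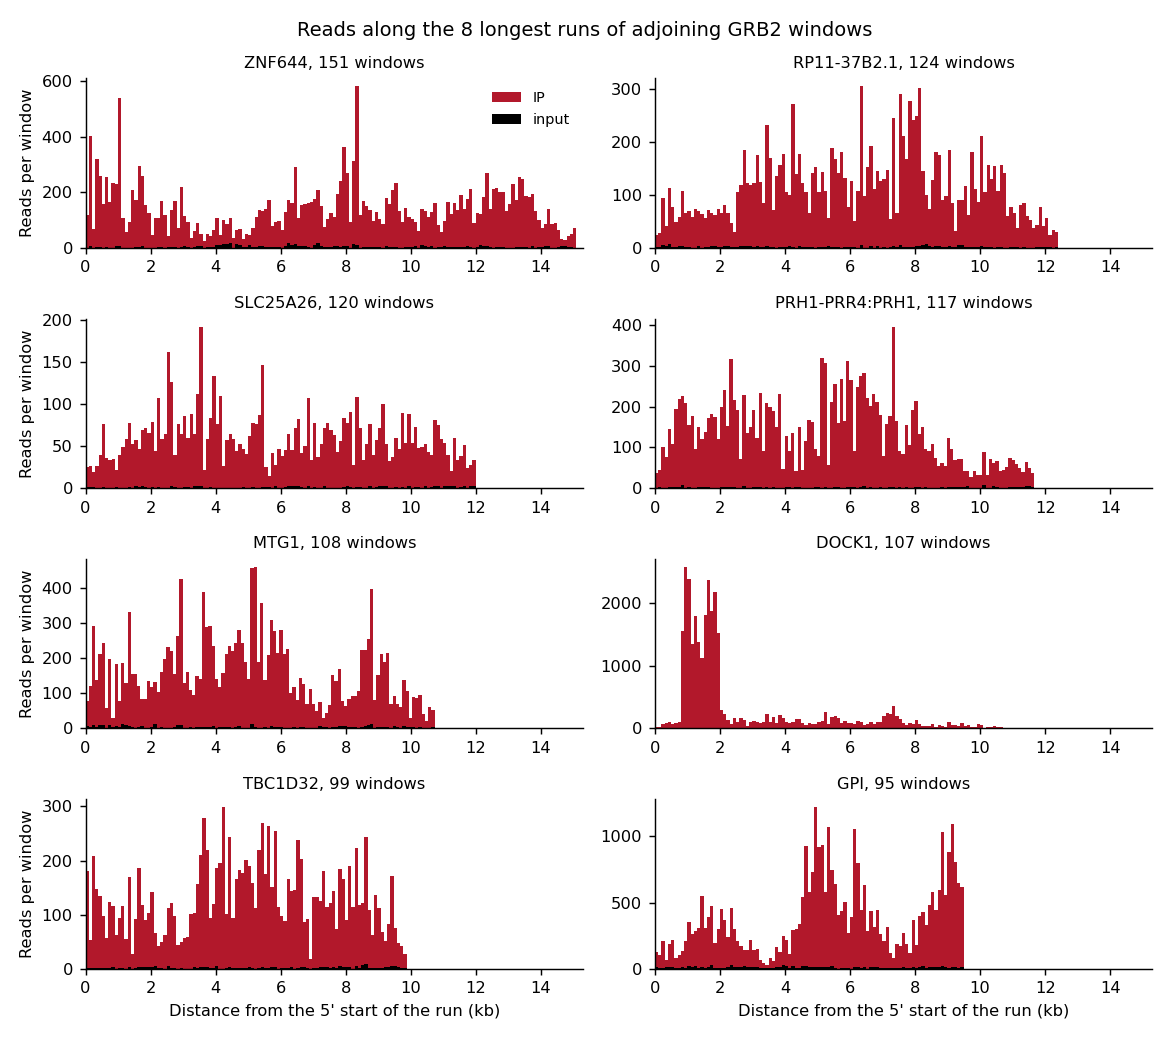
IP reads (red) and input reads (black) per window along the 8 longest runs of adjoining GRB2 windows, by distance in kb from the 5′ start of the run; vertical axes differ. Reads vary along ZNF644 between 23 and 580 a window with no gap, while in DOCK1 12 windows near the 5′ start rise above 1000.

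The windows lay in 5306 gene names, counting each name where a window carried several, which is 47.3% of the 11208 names in any of the 9 lists. A gene had a median of 23 windows (quartiles 6 and 62), and 504 genes had 1. With at least 40 IP reads required of a window, 3360 genes were left with a median of 13. At least 50 windows were held by 1622 genes, or 14.5% of all names, and at least 500 by 55 genes. The 523 genes with most windows, 9.86% of those listed, held 50% of the list. In the GRB2 list and in no other were 123 genes, or 2.32% of the 5306. The CPSF6, RNPS1 and EIF4B lists held 9510, 9834 and 10097 names, so most names of any list were in at least 1 of these.

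Long genes carried most of these windows. Of the listed names, 5142 matched a RefSeq gene, and 5052 of these had at least 90% of their windows inside it. Correlations and windows per kb use those 5052. The medians and deciles of length that follow also include the other 90. The median length was 62.8 kb for genes of any list with a GRB2 window and 13.7 kb for genes without one. When all genes were ranked by length and split into deciles, GRB2 windows were found in 4.78% of genes in the shortest decile, 41.8% in decile 5, 74.3% in decile 8 and 94.3% in the longest. The same shares for the CPSF6 list were 62.4%, 86.9%, 91.5% and 90.7%, so the rise across lengths was far steeper for GRB2. RNPS1 ran from 69.8 to 89.96% and EIF4B from 74.8 to 89.9%. Across genes the number of windows and the length had a Spearman correlation of 0.49 and a Pearson correlation of 0.49 on log scales (5052 genes, which share the same libraries). Windows per kb and length had a Spearman correlation of -0.12. Transcript abundance, intron length and window class were not held equal. Deep introns held 93.1% of GRB2 windows, against 23.4% for CPSF6, 5.73% for RNPS1 and 9.67% for EIF4B.

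**Figure D3:**
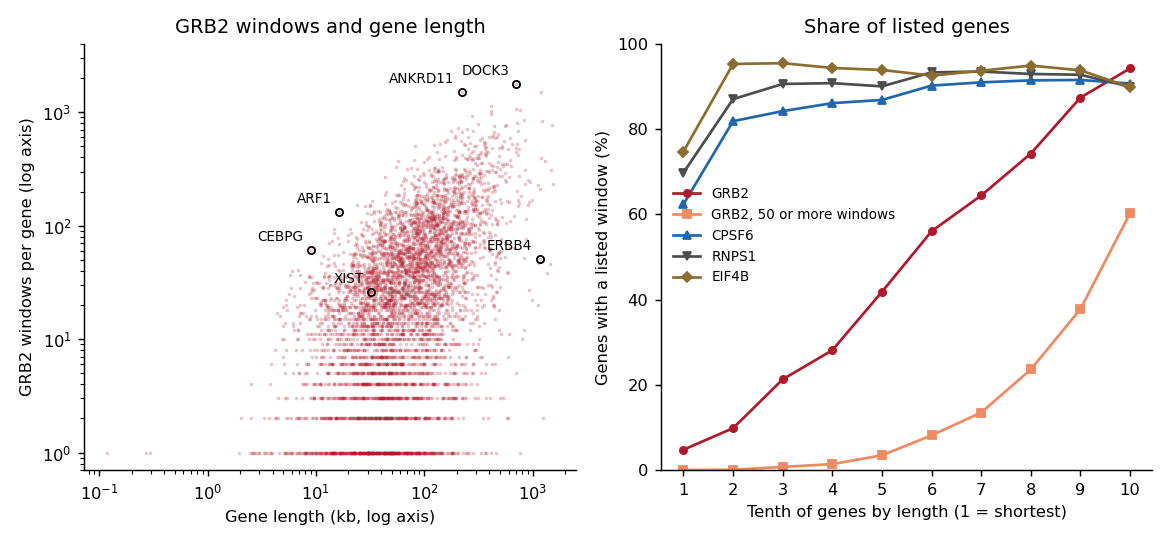
GRB2 windows per gene against gene length, both on log axes, with 6 genes circled (left), and the share of all listed genes with a window in each length decile (right). The GRB2 share climbs from 4.78 to 94.3% while CPSF6, RNPS1 and EIF4B start above 60%.

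The gene with most windows was DOCK3. DOCK3, a gene for a RAC exchange factor known from neurons, had 1776 windows over 709 kb (chr3:50674927-51384198), with 86405 IP and 1629 input reads. They lay in 14 annotated deep intron segments, the fullest with 358. The IP reads per input read were 53.0 (95% exact interval 50.5 to 55.7). ANKRD11, a chromatin regulator gene of 223 kb, had 1503 windows with 124974 and 6164 reads, and 67.3% of the gene was covered. AUTS2, a neurodevelopmental gene tied to Polycomb complexes, had 1496 over 1195 kb, or 12.5% of the gene, with 62834 and 3587 reads. DOCK3 thus had more windows than ANKRD11 at a lower density, and higher IP reads per input read.

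DIP2C had 1146 windows, of which 953 lay in 1 intron segment of its 415 kb. TTC28 had 1067 with 642 in 1 segment, and SMYD3, a lysine methyltransferase gene, had 1042 with 642 in 1 segment. MAD1L1, the gene for the spindle checkpoint protein MAD1, had 1034, TBC1D22A 957, JARID2, a Polycomb cofactor gene, 928, and RABGAP1L 854. Over these 10 genes the IP reads per input read ran from 17.5 in AUTS2 to 53.0 in DOCK3. Over the 1561 genes with at least 50 windows and a length, the median was 32.3, with 10% of genes under 15.5 and 10% above 67.2. Concentration in 1 segment was usual, since the fullest segment held a median of 59.7% of such a gene's windows.

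Of the 10 densest genes, 8 were shorter than 62.8 kb. ARF1, the gene for a Golgi GTPase, had 133 windows in 16.5 kb, or 8.06 windows per kb, and 79.5% of its length was covered. CEBPG, a transcription factor gene of 8.98 kb, had 61 windows, or 6.79 per kb. They were followed by ANKRD11 (6.74 per kb), TFDP1, an E2F partner gene (6.60), MLEC (6.39), PTTG1IP (6.27), the poly(A) polymerase gene TENT4A (6.14), the SMAD repressor gene SKI (6.12), BRD1 (6.06) and NDUFS6, a complex I subunit gene (5.94). The median over genes with at least 50 windows was 0.93 per kb. The densest pair had low IP reads per input read. ARF1 had 13.9, with 9234 and 662 reads, and CEBPG 12.5, both under the median of 32.3, while PTTG1IP had 33.6.

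By IP reads alone, a noncoding RNA led. XIST, the long noncoding RNA that coats and silences an X chromosome, held 281155 IP and 12502 input reads in only 26 windows, or 2.11% of all GRB2 IP reads. Its input reads were high as well. With 22.5 IP reads per input read it was under the 25.7 of the whole list, so it did not lead by that ratio. The windows formed 1 unbroken run at chrX:73850126-73852723, the first 2.59 kb of a gene of 32.1 kb. Windows of over 10000 IP reads numbered 11 and lay between 0.79 and 1.89 kb from the 5′ end, where they held 82.96% of the XIST reads. The first windows of the RNA held less, with 2103 IP and 296 input reads at the 5′ end itself. The highest held 30148 and 1075, with log2 enrichments of 4.50 and 4.84, and the median lower-replicate value was 3.68. Of the 26 windows, 24 were also in the EIF4B list, 25 in the RBM22, 16 in the CPSF5 and 10 in the CPSF6 list. Over all their XIST windows, 18 to 116 in number, those lists had lower median enrichments of 1.36 to 1.96. Those medians include windows outside the GRB2 run, and the shared windows alone were not compared. The EIF4B, RBM22 and CPSF6 lists had windows from end to end of the XIST gene, and the GRB2 list did not. After XIST came ANKRD11, GPI with 89218 IP and 1548 input reads in 122 windows, DOCK3 and TTC28.

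GRB2 windows were placed toward the 5′ ends of genes. Of 279946 intron windows in genes with known ends, the 10 equal stretches of the gene from 5′ to 3′ held 14.3, 14.4, 13.4, 12.1, 11.2, 9.64, 8.56, 7.498, 6.04 and 2.77%. The share fell at each step from the second stretch on, and 65.5% lay 5′ of the middle of the gene. On the plus strand that share was 66.8% and on the minus strand 64.1%. With each of 1529 genes of at least 50 placed windows counted equally, it was 63.2%, with 12.8% in the first stretch and 2.94% in the last. Weighting by IP reads gave 14.7% in the first and 2.41% in the last. Deep intron windows of CPSF6 had 50.1% 5′ of the middle and those of RNPS1 50.4%, while RBM10 had 41.8% and MBNL2 68.6%. GRB2 was therefore not the highest of the lists in this respect. The difference between lists was not tested, and how much intron each stretch contains was not available to set beside it.

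**Figure D4:**
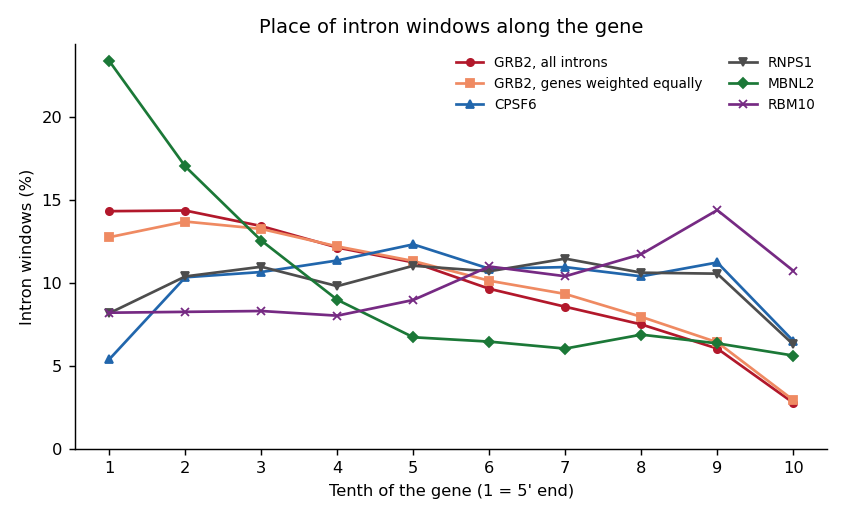
Share of intron windows in each of 10 equal stretches of the gene from 5′ to 3′, for GRB2 over all introns, for GRB2 with genes weighted equally, and for deep intron windows of 4 other lists. Both GRB2 lines fall from above 12% in the first stretch to under 3% in the last, the CPSF6 and RNPS1 lines are flat in between, and the MBNL2 line starts higher.

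Within introns, windows were spread over many segments. Deep intron windows lay in 10797 annotated segments, with a median of 11 windows each, and 1497 segments with at least 50 windows held 57.0% of them. The deposited window number counts windows from the left end of a segment on both strands. Its median was 105 on the plus strand, where the count starts at the 5′ side, and 131 on the minus strand, where it starts at the 3′ side. All 8 other lists also had the lower median on the plus strand, for instance 76 and 88 for CPSF6. In the DIP2C segment 953 of 2019 windows between the first and last were listed, and in that of ANKRD11 726 of 1003, or 72.4%.

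The median GC of GRB2 deep intron windows was under the mean of the other lists, but it was not the lowest. The median was 41% (quartiles 35 and 49), against 47.4% ± 6.77 (SD, n = 8) over the medians of the other lists, which ran from 38 to 57%. The exact permutation test over the 9 lists, two-sided, gave p = 0.556. CPSF6 had the same median of 41% and CPSF5 a lower one of 38%. Enrichment varied with GC inside the GRB2 list. Windows of 35 to 40% GC, the most frequent with 60295, had 35.3 IP reads per input read and a median lower-replicate log2 enrichment of 3.57. Those of 60% and over, 13810 in number, had 18.6 and 3.25. Windows under 30% GC had 28.6 and 3.48, so the relation was not in 1 direction over the whole range.

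**Figure D5:**
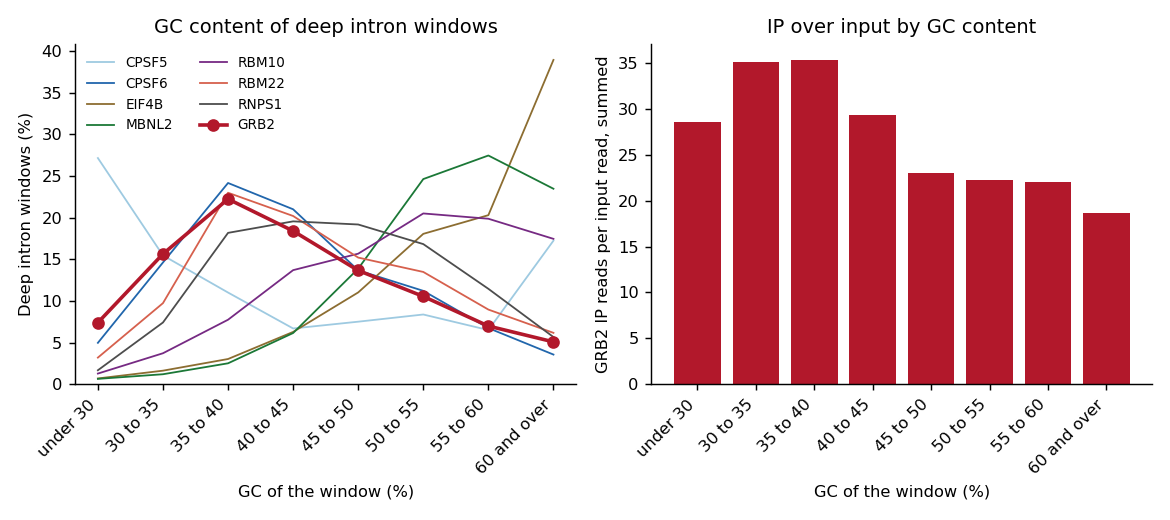
Distribution of deep intron windows over GC content for GRB2 (red, points) and 7 other lists (left; LGALS3, with 29 such windows, is not drawn), and GRB2 IP reads per input read in each GC interval (right). The GRB2 line lies close to that of CPSF6, and the bars fall from 35.3 at 35 to 40% GC to 18.6 at 60% and over.

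Few GRB2 intron windows were listed for another protein. Of 271124 deep intron windows, 2580 or 0.95% were in any other list, with identical coordinates and strand. Weighted by IP reads the share was 1.93%, and among windows with a lower-replicate log2 enrichment of at least 3 it was 0.55%. Seen from the other side the shares were larger, because those lists hold few deep intron windows. Of MBNL2 deep intron windows 19.3% were also GRB2 windows (383 of 1981, or 0.14% of the GRB2 windows), of CPSF5 18.7% (391 of 2088, 0.14%) and of RBM10 15.5% (636 of 4101, 0.23%). For CPSF6, which has the second largest number of deep intron windows, the share was 2.18% (792 of 36326, 0.29%), and for RNPS1 3.83% (335 of 8758, 0.12%). Windows shared with any 1 list held more GRB2 reads, and they were less enriched except for 6 shared with LGALS3, at a median of 6.502. Those shared with CPSF6 had a median of 34 IP and 3 input reads and a lower-replicate log2 enrichment of 2.40, against 30, 1 and 3.40 for the rest. Those shared with CPSF5 had 68 and 5 reads and 3.13.

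Transcripts of the pathway in which GRB2 acts were not listed more often than all genes in the decile of their median length. Of 25 genes for GRB2 binding partners and adaptors in any list, 18 had a GRB2 window, or 72.0%, against 87.4% of all genes in the length decile that holds their median length of 91.0 kb. This background is coarse, because these genes ran from 12.1 kb (SHC1) to 354 kb (SH3KBP1), in deciles with shares of 21.3% and 94.3%. No gene list here was matched to its background gene by gene, so a difference from genes of like length was not tested. PTK2, the gene for focal adhesion kinase, had 589 windows with 31895 IP and 1165 input reads. NCK1 and NCK2, genes for SH2 and SH3 adaptors like GRB2, had 147 and 140, and CD2AP, a CBL-associated scaffold gene, 130. The GRB2 transcript itself had 40 windows with 1611 and 99 reads, SOS1 had 34, and the ubiquitin ligase gene CBL 64. SHC1, SOS2, IRS2, PIK3R2, DNM1, DNM2 and SYNJ1 had none.

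Among receptor tyrosine kinase genes 15 of 25 were listed (60.0%, same background of 87.4%). They ran from 15.6 kb (FGFR3) to 1163 kb (ERBB4), in deciles with shares of 28.1% and 94.3%. IGF1R, the gene for the insulin-like growth factor receptor, led with 784 windows, 34623 IP and 1812 input reads, followed by FGFR2 with 188, RYK with 100 and ROR1 with 61. ERBB2, FGFR1 and KIT had no GRB2 window. Of RAS and MAP kinase genes 17 of 28 were listed (60.7%, same background of 87.4%). These ran from 3.34 kb (HRAS) to 385 kb (RASAL2), in deciles with shares of 4.78% and 94.3%. The background is therefore coarse for both lists, and no deficit for genes of like length was tested. NF1, a RAS GTPase-activating protein gene, had 258 windows, RASAL2, of the same kind, 154, the kinase gene BRAF 136 and the small GTPase gene RRAS2 75. HRAS and NRAS had none.

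Of the DOCK exchange factor genes and their partners 6 of 8 were listed (75%, against 94.3% in their length decile), and DOCK3 and DOCK1, with 1776 and 554 windows, stood far above DOCK4 with 58, DOCK5 with 18 and DOCK11 with 5. DOCK9, at 295 kb, had none. Of chromatin regulator genes 40 of 50 were listed (80.0%, against 87.4%). After ANKRD11 and SMYD3 came EHMT1, a histone H3 lysine methyltransferase gene, with 557 and KDM6A, a demethylase gene, with 399. CHD9, at 273 kb, had none. Of neuronal adhesion and synapse genes 12 of 13 were listed (92.3%, against 94.3%). They were led by AUTS2 and by GPHN, the gene for the synaptic scaffold gephyrin, with 836, then GPC6 with 396 and MAGI3 with 356. CNTNAP2, the longest gene of any list at 2304 kb, had none, although another list held it.

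Cleavage and polyadenylation factors and ribosomal proteins have shorter genes. Of the former 9 of 20 were listed (45%, against 56.1% in their length decile), led by FIP1L1 with 154 windows, WDR33 with 55, PAPOLA with 19 and CPSF7 with 18. Transcripts of CPSF6 and NUDT21, whose proteins were assayed in the same series, had none. Of 78 ribosomal protein genes 28 were listed (35.9%), more than the 9.85% of all genes in their length decile. RPS9 had 41 windows in 6.79 kb, RPL32 37, RPS15A 35 and RPL5 32. In RPS15A 7 windows were in deep introns, and it had 30.1 IP reads per input read (4667 and 155) against 12.3 in RPS9.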

How the data were processed

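The 2 GRB2 IP and 2 GRB2 input libraries enter 1 table. Coordinates are in hg38, per the submitters' processing notes. Aligner, caller of windows and annotation release are not given in the sources used. IP and input reads are whole-number counts that the authors deposited as sums over the replicates. The log2 odds ratio of IP over input, the q-value and the GC fraction of each window are the authors' own deposited values. The lower and higher of the 2 replicate log2 values are quoted. GC is printed in percent. The largest q-value listed was 0.199.

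From these, runs of adjoining windows, windows per gene, place along the gene and overlaps were computed in Python 3.11.15 (pandas 2.3.3, numpy 2.4.6, scipy 1.17.1) and drawn with matplotlib 3.10.9. The functions gave the known answer in 9 of 9 checks on simulated windows. Gene ends, promoters and hairpins came from RefSeq tables for GRCh38.p14, matched by symbol and chromosome. Of the 5306 names 5142 matched, or 96.9%, and 90 of these had under 90% of their windows inside the RefSeq gene. Those 90 were left out of windows per kb and of correlations with length. They were kept in the medians over genes of any list and in the length deciles. Each list gave 1 value in the exact permutation tests.

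Named genes were the 10 with most windows, the 10 densest of those with at least 50, the genes of the 5 longest runs, the 5 with most IP reads, the 4 leading genes of each of 8 gene lists, and in each class of at least 20 windows the 3 most enriched windows with at least 5 input reads. The text leaves out some of these windows. Genes named because they had no window were chosen after their values were seen. The members and gene lists were chosen with earlier results of these data known. A few genes that these rules and lists name are not reported here.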

Additional observations from a re-analysis of the deposited data

How the results depend on the processing

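No paired analysis was possible because the deposited counts are summed over the replicates and the tables hold no column per library. For the same reason no replicate could be left out. Under the thresholds and weights tried, deep introns held over 90% of the list. In the 2 permutation tests, which cannot reach 0.05, the GRB2 value stayed on the same side of the mean of the other lists. With a q-value of at most 0.05, the deep intron share was 93.5%, the median windows per gene 15, the share in the first 10% of the gene 13.98%, the share of deep intron windows in another list 1.00% and the IP reads per input read 33.8. With a lower-replicate log2 enrichment of at least 3, these were 95.1%, 15, 12.5%, 0.55% and 54.99. With at least 1 input read they were 91.3%, 16, 16.4%, 1.39% and 19.5. With at least 40 IP reads they were 92.6%, 13, 14.8%, 1.40% and 28.5, and the number of genes fell to 3360. In windows of at least 75 nt the deep intron share was 93.3%. Weighting by IP reads gave 90.1% in deep introns, 14.7% in the first 10% of the gene and 1.93% in another list. Windows per kb of gene had a median of 0.38, and 0.45 over the span of listed windows. The share in runs of 3 or more ran from 53.5% with at least 1 input read to 85.3% weighted by IP reads, with exact permutation p = 0.111 throughout. The median GC ran from 40 to 42%. Enrichment of single windows is limited by the median of 1 input read.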

Other observations

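Besides XIST, other noncoding RNAs held many windows, most of them in introns. FTX, a gene of the X-inactivation centre, had 532 windows, of which 6 were exonic, with 31656 IP and 1413 input reads. LINC00630 had 387 and CKMT2-AS1 250, with no exonic window in either, and CKMT2-AS1 reached 62.9 IP reads per input read (29373 and 467). NUTM2B-AS1 had 203. NEAT1, the scaffold RNA of paraspeckles, was covered in its exon by 57 windows with 41994 and 6484 reads. Its 6.48 IP reads per input read and its median lower-replicate log2 enrichment of 2.15 were below those of XIST, at 22.5 and 3.68. JPX, next to XIST, had 121 windows with 14811 and 1635 reads and was also held by 103 CPSF6 windows.

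In 3′ UTRs, a few genes had long stretches of windows. C12orf45 had 143 with 8745 IP and 257 input reads, INTU, a planar polarity gene, had 64, SOD2, the gene for mitochondrial superoxide dismutase, 63, AGO2 60, the decapping enzyme gene DCP2 54 and OTUD3 49. OTUD3 had 10022 and 223 reads and DCP2 3170 and 326. These 6 genes were chosen by their number of windows after the values were seen.

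Hairpins of 1 chromosome were not examined. Of 1562 other RefSeq miRNA hairpins, 19 were touched by 26 GRB2 windows, and 4 lay wholly inside one. Among these 4, the one with most IP reads was MIR573, in an intron of DHX15, a helicase gene, where the window at chr4:24520192-24520290 on the minus strand was the hairpin itself. It held 59 IP and 2 input reads, with log2 enrichments of 3.72 and 4.11, and is shown as the one with most reads of the 4.
MIR573 hairpin, RefSeq GRCh38.p14: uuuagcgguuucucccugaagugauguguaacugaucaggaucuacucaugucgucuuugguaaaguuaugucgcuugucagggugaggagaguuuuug
Other windows of the same primary transcript held as many reads, for instance 83 IP and 5 input reads at chr4:24520092-24520191. The hairpin had fewer IP reads than this neighbour but more per input read, at 29.5 against 16.6, and its lower log2 enrichment was 3.72 against 2.98. With 2 and 5 input reads, these ratios rest on few counts and their difference was not tested.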
